A study of Mus musculus with 3 samples.

Results

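The 5 genes described here are induced by signalling through Ras and the MAP kinase ERK and are grouped as feedback genes of that pathway: the phosphatases Dusp1 and Dusp6, the Sprouty proteins Spry2 and Spry4, and Phlda1. The question was where c-FOS, a DNA-binding subunit of the transcription factor AP-1, was listed around them in a mouse basal cell carcinoma line that carried activated Ras. Peaks were taken from the authors' list when their midpoint lay in 1 of 5 windows of mm9 named for these genes, of 110 to 130 kb each and 580 kb together. The windows held 16 of the 15011 peaks in the list. Each of the 5 windows held at least 1 peak: Dusp1 held 6, Dusp6 held 5, Spry2 and Spry4 held 2 each, and Phlda1 held 1. The windows were given with the gene names, and an mm9 gene annotation was not used here. A peak is therefore placed in the window of a gene, and its place relative to the gene's start, exons or introns was not analysed here.

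The cells were ASZ001, an established mouse basal cell carcinoma line, of genotype RasV12_TGFbR1kd: they carried RasV12, an activated form of Ras, and an shRNA that targets TGFbR1, a receptor for TGF-beta. All samples were treated with Dox and 4OHT and collected on day 6 after induction. Chromatin was immunoprecipitated with a rabbit monoclonal antibody to c-FOS (9F6) in 2 samples, and 1 input sample had no antibody. Every sample shared this genotype and treatment and came from 1 cell line, and the list does not name a replicate, so no value below has a replicate error and no arm without induction enters. Depth per peak is unknown.

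Growth factor receptors activate Ras, which passes the signal through Raf and MEK to ERK, and ERK activity leads to transcription of immediate early genes, Fos among them. The same pathway induces its own inhibitors. Dusp1 removes phosphate from p38, JNK and ERK in the nucleus, and Dusp6 acts on ERK in the cytoplasm. Sprouty proteins act further up, between the receptor and Raf. Phlda1, a pleckstrin homology domain protein also called TDAG51, is a growth-factor-induced gene. AP-1 dimers bind the letters TGAGTCA, read TGACTCA on the other strand, and can also bind the cyclic AMP response element (CRE), TGACGTCA.

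The RefSeq promoters show which of these letters lie at the gene starts themselves. They are shown because the mm9 sequence under the peaks was not used here. Sequences for 3 of the 5 genes were at hand, on GRCm38.p6, so their coordinates cannot be set against the mm9 peaks below. The 250 bases upstream of the annotated start of Dusp1 (chr17:26508473-26508722, minus strand), Dusp6 (chr10:99262981-99263230, plus strand) and Spry2 (chr14:105896820-105897069, minus strand) are written 5′ to 3′ along the transcribed strand. Capitals mark the CRE, or its first 7 letters.
Dusp1: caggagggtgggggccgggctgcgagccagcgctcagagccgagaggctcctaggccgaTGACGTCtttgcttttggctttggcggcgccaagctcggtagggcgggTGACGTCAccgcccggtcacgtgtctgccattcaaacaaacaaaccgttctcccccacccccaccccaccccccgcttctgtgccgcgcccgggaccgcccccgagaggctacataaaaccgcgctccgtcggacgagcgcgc
Dusp6: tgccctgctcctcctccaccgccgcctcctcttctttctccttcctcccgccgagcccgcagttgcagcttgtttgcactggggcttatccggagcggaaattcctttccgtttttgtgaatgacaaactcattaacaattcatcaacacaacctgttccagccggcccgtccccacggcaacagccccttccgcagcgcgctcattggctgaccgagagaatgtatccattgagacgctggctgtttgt
Spry2: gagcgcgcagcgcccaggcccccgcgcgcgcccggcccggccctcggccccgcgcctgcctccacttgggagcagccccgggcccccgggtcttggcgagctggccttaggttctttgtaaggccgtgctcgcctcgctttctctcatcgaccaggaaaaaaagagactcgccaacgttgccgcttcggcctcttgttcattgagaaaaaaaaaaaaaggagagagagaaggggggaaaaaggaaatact

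The Dusp1 promoter holds TGACGTCA from 143 to 136 bases upstream of the start. Of the 32851 promoters of 300 bases in the RefSeq table, 250 upstream and 50 downstream of the start, 1.79% hold this motif. In the 250 upstream bases Dusp1 has 68.4% G or C, against a median of 52.4% over all promoters. The share of 1.79% was not matched for this composition. A second stretch, TGACGTC, lies 191 to 185 bases upstream in Dusp1; this shorter motif was added after the sequence had been read, overlaps the CRE where both occur, and is held on either strand by 3.21% of promoters. Dusp6 and Spry2 have neither in their 300 bases. TGAGTCA or TGACTCA occurs in 0 of the 3 promoters and in 5.20% of all. Of 22 other feedback and early response genes of the pathway, 17 had a promoter in the table. The AP-1 letters are in 0 of these 17, and the CRE is in 2, Dusp8, a phosphatase of the JNK and p38 kinases, and Errfi1, an inhibitor of the EGF receptor. The shorter motif is in 3 of the 17, these 2 and Spred2, a Sprouty-related inhibitor of the pathway. These 17 were counted by gene, where a match in any promoter of the gene sufficed. The shares of 1.79%, 3.21% and 5.20% are per promoter, so the 2 kinds of count are not directly comparable. These are matches of letters in fixed stretches, and binding at them was not measured by the match.

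Over all windows, the 16 peaks amount to 27.6 per Mb, against 5.65 per Mb for the whole list over mm9, a ratio of 4.88. This density depends on the window length. In windows of 0.5 times the length about the same centres it was 44.8 per Mb, and in windows of 2 times the length 24.1 per Mb. Of the 16 peaks, 11 lay in the windows of Dusp1 and Dusp6. The 5 windows as given make up 0.0218% of the assembled length and hold 0.107% of the peaks. For a background, chromosomes 1 to 19 and X were divided into consecutive windows of the same lengths. At least 1 peak was held by 26.7% of 23980 windows of 110 kb, 28.2% of 21981 windows of 120 kb and 29.3% of 20291 windows of 130 kb, beside 5 of 5 for the genes. These background windows were not centred on genes and include unsequenced stretches, so they are a plain description of the list and no test. The genes and their windows were also chosen with earlier results of these data known, so the comparison is not an independent one.

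The map of peaks around each window centre shows the arrangement of these 16 sites and of their nearest neighbours.

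**Figure D1:**
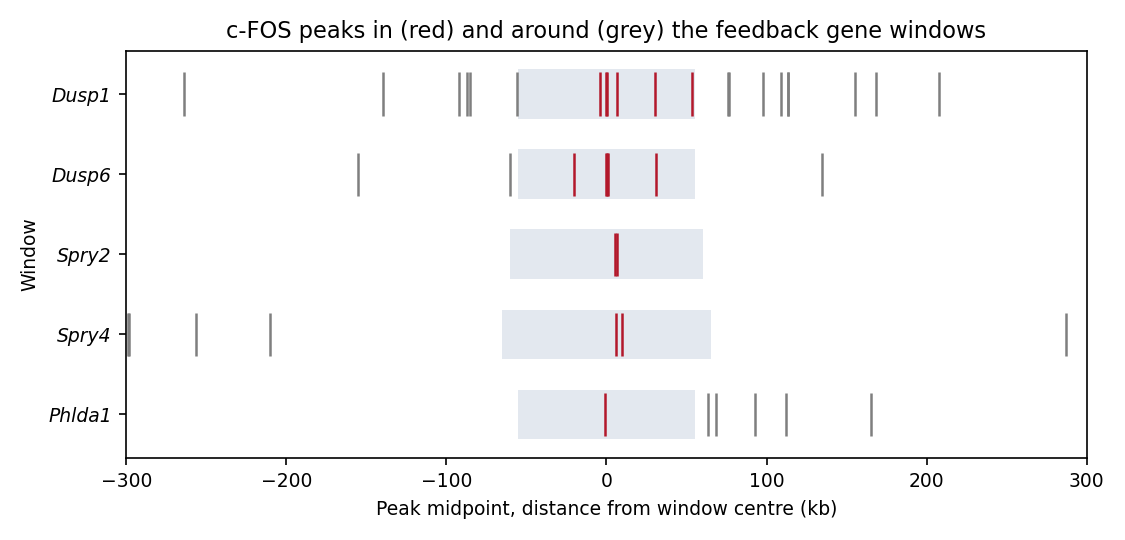
Positions of c-FOS peak midpoints as distance in kb from the centre of each gene's window (horizontal axis, 300 kb to either side), with 1 row per gene. Shaded bars are the windows, red lines the 16 peaks inside them and grey lines other listed peaks; Dusp1 lies among many further peaks, while the 2 Spry2 peaks have none within 300 kb.

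Dusp1, also called MKP-1, is an immediate early phosphatase of the MAP kinases, and its window held the most c-FOS peaks of the 5. On mm9 the window runs over chromosome 17 from 26590000 to 26700000. Its peaks lay at 26640856 to 26640969 (114 bp), 26644818 to 26644978 (161 bp), 26645153 to 26645371 (219 bp), 26651676 to 26651997 (322 bp), 26675193 to 26675359 (167 bp) and 26698168 to 26698459 (292 bp). The first 4 thus lie close together, and the last 2 stand apart. The peak of 167 bp lies 23.2 kb above that of 322 bp, and the peak of 292 bp lies 22.8 kb above that of 167 bp. The peaks of 161 and 219 bp were separated by only 174 bp and form a pair of 554 bp. They sit at the centre of the window, with midpoints 0.103 kb below and 0.262 kb above it. The peak of 322 bp was the widest of the 6, and 90.5% of peaks in the list were narrower.

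A count of 6 or more peaks was found in 2.02% of the 110 kb windows of the genome and in 3.35% of those on chromosome 17. The density in the Dusp1 window was 54.5 per Mb, 6.86 times that of chromosome 17 (7.96 per Mb). Its surroundings were dense as well: the rest of the 1 Mb about the centre held 20 peaks, or 22.5 per Mb. The nearest peak below the window, at 26588762 to 26588889, missed its edge by 1.18 kb, and the nearest above, at 26720996 to 26721175, by 21.1 kb. In the RefSeq gene table (GRCm38.p6) Dusp1 spans 2.88 kb and its nearest protein-coding neighbours are Neurl1b and Ergic1. Most of the window is therefore not Dusp1 itself, and which gene each peak serves was not tested.

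Dusp6, also called MKP-3, is the ERK phosphatase of the cytoplasm and a widely used readout of ERK activity. Its window, on chromosome 10 from 98670000 to 98780000, held 5 peaks. A group of 3 lay in the middle, at 98724478 to 98724711 (234 bp), 98725480 to 98725674 (195 bp) and 98725767 to 98726250 (484 bp). The gaps inside this group were 768 and 92 bp, so that the 3 peaks fall within 1773 bp and cover 913 bp of it. The other 2 peaks flanked the group: 98704729 to 98704891 (163 bp) lay 19.6 kb before it and 98755760 to 98756010 (251 bp) lay 29.5 kb after it.

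The 484 bp peak of the Dusp6 group was the widest of all 16. In the whole list 97.9% of peaks were narrower, and on chromosome 10, where the median width was 158.5 bp, 3 peaks were wider. The group is 1 of 9 on chromosome 10, and 1 of 292 in the list, in which 3 or more peaks follow each other within 1000 bp. At least 5 peaks were found in 3.04% of the 110 kb windows of the genome and in 1.02% of those on chromosome 10. The density was 45.5 per Mb in the Dusp6 window, 7.87 per Mb in the rest of the surrounding 1 Mb and 2.88 per Mb on the chromosome, so the window exceeded its chromosome 15.8-fold. The nearest peak below lay 5.37 kb outside the edge, at 98664566 to 98664695, and the nearest above 79.6 kb outside, at 98859503 to 98859632. Dusp6 spans 4.26 kb in RefSeq, with Poc1b and Csl as the nearest protein-coding genes.

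The density of peaks in each window, in the rest of the surrounding 1 Mb and on the chromosome shows these differences side by side.

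**Figure D2:**
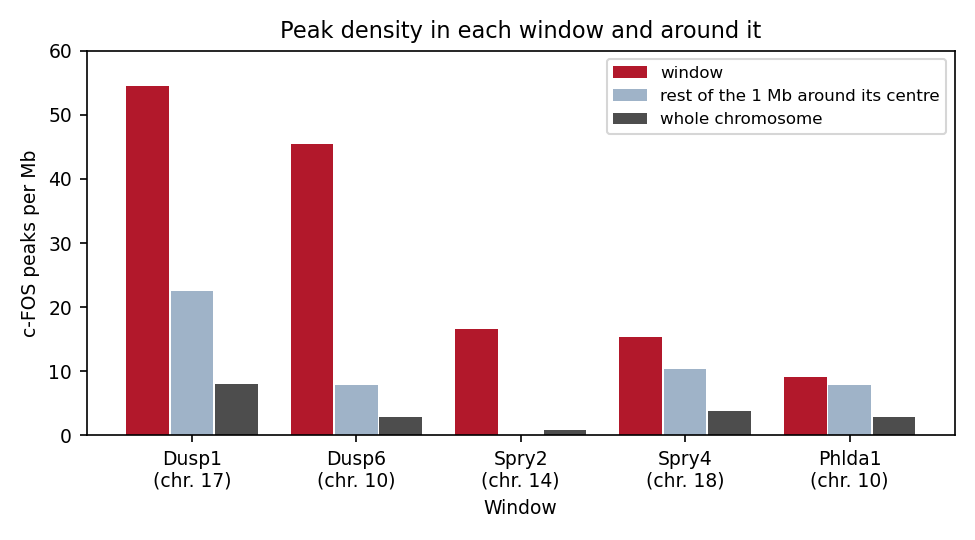
Bars give c-FOS peaks per Mb (vertical axis, from 0) in each gene window (red), in the rest of the 1 Mb about its centre (light blue) and on its whole chromosome (dark grey). Dusp1 and Dusp6 reach 54.5 and 45.5 per Mb, Phlda1 9.09 per Mb, and the surroundings of Spry2 hold no peak.

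Spry2 is a Sprouty protein that is induced by receptor tyrosine kinase signalling and dampens it. Its window, on chromosome 14 from 106230000 to 106350000, held 2 peaks, at 106295331 to 106295570 (240 bp) and 106296562 to 106296697 (136 bp). They form a pair with a gap of 991 bp, and 0 of the peaks listed elsewhere fell in the 1 Mb about the window's centre. The next peak below lay 637 kb before the pair, at 105657650 to 105657872, and the next above 11.0 Mb after it, at 117324411 to 117324508. Among 14955 gaps between neighbouring peaks on the autosomes, 2 were longer than these 11.0 Mb, and both were also on chromosome 14.

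Chromosome 14 held 109 peaks, or 0.871 per Mb, and the Spry2 pair was 1 of its 3 groups of 2 or more peaks within 1000 bp. In the whole list 1653 such groups were counted, of which 11, the Spry2 pair among them, lay at least 637 kb from any other peak. At least 2 peaks were found in 15.0% of the 120 kb windows of the genome, but in 1.44% of those on chromosome 14. The density in the window, 16.7 per Mb, was 19.1 times that of its chromosome, the largest such ratio of the 5 windows, and rests on 2 peaks on a chromosome with few. Neither these shares nor the ratio is a test. In RefSeq the gene spans 4.87 kb and its nearest protein-coding neighbours are Ndfip2 and Trim52.

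Spry4, a second Sprouty protein, had 2 peaks in its window on chromosome 18 from 38690000 to 38820000. They lay at 38761062 to 38761197 (136 bp) and 38764513 to 38764726 (214 bp), with a gap of 3.32 kb between them. Outside the window, the nearest peak below (38544473 to 38544836) was 216 kb from the first of these 2 peaks. The nearest above (39041802 to 39042056) was 277 kb from the second. At least 2 peaks were found in 16.1% of the 130 kb windows of the genome and in 12.3% of those on chromosome 18. The density of 15.4 per Mb compares with 10.3 per Mb in the rest of the surrounding 1 Mb and 3.76 per Mb on the chromosome, a ratio of window to chromosome of 4.10. Spry4 spans 15.1 kb in RefSeq, between Ndfip1 and Arhgap26.

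Both Sprouty windows thus held 2 peaks each, at 5.45 and 6.63 kb (Spry2) and 6.13 and 9.62 kb (Spry4) above the window centre. The surroundings differed: 0 further peaks lay in the 1 Mb about the Spry2 centre and 9 in that about Spry4. With 1 list and no replicate, this difference was not tested.

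Phlda1 had a single peak in its window on chromosome 10 from 110890000 to 111000000. It lay at 110943714 to 110943822, 1.23 kb below the centre, and at 109 bp was the narrowest of the 16, with 17.9% of the list narrower. At least 1 peak was held by 26.7% of 110 kb windows of the genome, and by 16.2% of those on chromosome 10, so this count is near the background. The density of 9.09 per Mb was 3.16 times that of the chromosome. The next peak above, at 111008062 to 111008193, was 8.13 kb outside the window, and the next below was 496 kb from the Phlda1 peak. The window of Phlda1 is 1 of 2 on chromosome 10, and it held 1 peak where that of Dusp6 held 5. Phlda1 spans 2.36 kb in RefSeq, with Nap1l1 and Krr1 as its neighbours.

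The number of peaks reached at increasing distance from each centre shows how the loci differ outside the windows.

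**Figure D3:**
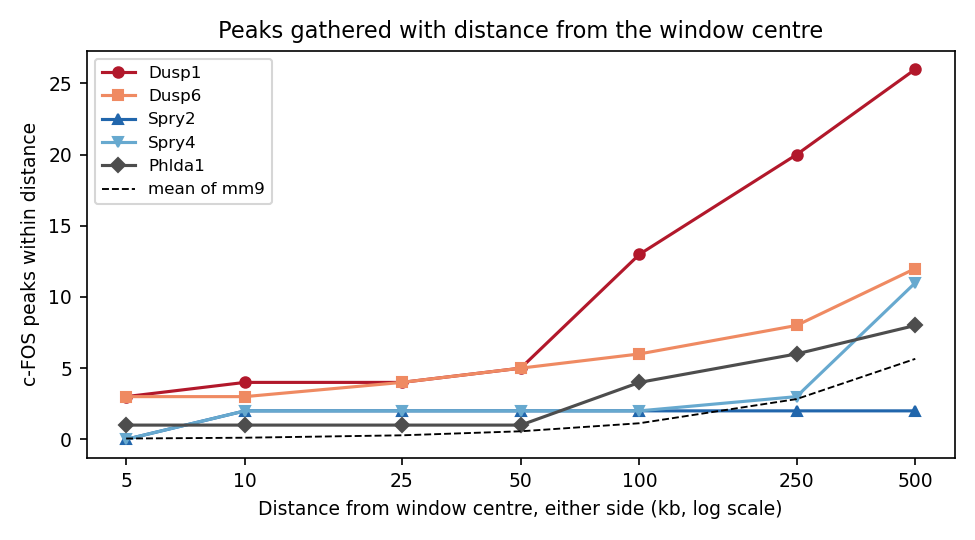
Number of listed c-FOS peaks (vertical axis) within a given distance to either side of the window centre (horizontal axis, kb, log scale), 1 line per gene, with the count that the list's mean density over mm9 gives as a dashed line. Dusp1 reaches 26 peaks within 500 kb and Dusp6 12, while Spry2 stays at 2 from 10 kb onward.

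Within 10 kb of the centres lay 12 of the 16 peaks, and 7 lay within 5 kb, 3 each for Dusp1 and Dusp6 and 1 for Phlda1. The 5 windows already differed within 10 kb, with 4 peaks for Dusp1, 3 for Dusp6, 2 for each Sprouty window and 1 for Phlda1. Further out, within 100 kb of the centre, Dusp1 had 13 peaks, Dusp6 had 6, Phlda1 had 4 and the Sprouty windows had 2 each. Within 500 kb the counts were 26 for Dusp1, 12 for Dusp6, 11 for Spry4, 8 for Phlda1 and 2 for Spry2. How the window centres were placed is not given in the sources used here, so the nearness of peaks to them is a description.

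The widths of the 16 peaks ranged from 109 to 484 bp with a median of 204.5 bp, against 158 bp for the list (quartiles 119 and 225 bp). Of the 16, 6 were above the list's upper quartile, 8 within the quartiles and 2 below the lower one. In the Dusp6 window all 5 were wider than the list median, in the Dusp1 window 5 of 6, in each Sprouty window 1 of 2, and at Phlda1 0 of 1. Of all 16, 12 (75%, Wilson 95% interval 50.5 to 89.8%) were wider than the median. None of the 16 had the smallest width in the list, 98 bp, which 10.7% of all peaks had. None was wider than 500 bp, as 1.75% were. The Wilson 95% interval for 0 of 16 was 0 to 19.4%, which takes in both of these shares. The Wilson intervals take in counting error alone and assume independent peaks, although the 16 share 5 loci. Most of the 12 wider peaks lie in the Dusp1 and Dusp6 windows. None of these intervals is therefore a test of the 16 against the list.

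**Figure D4:**
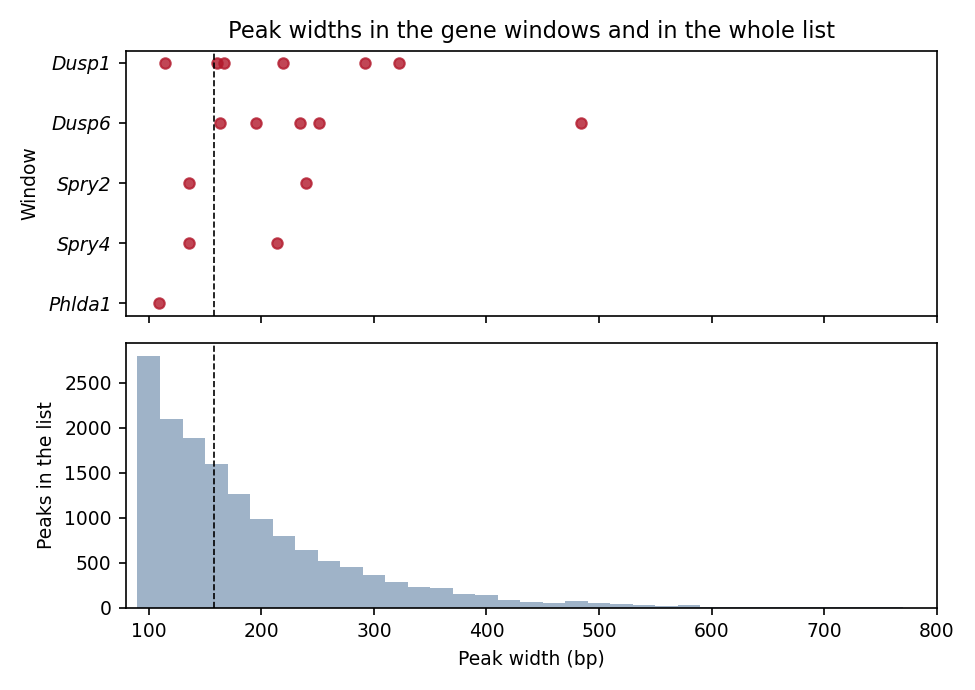
Upper panel, width in bp (horizontal axis) of each of the 16 peaks, 1 point per peak and 1 row per gene; lower panel, number of peaks of the whole list in width bins of 20 bp, with 25 peaks wider than 790 bp not drawn. The dashed line is the list's median of 158 bp, and 12 of the 16 points lie to its right.

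Closeness to other peaks varied among the genes. Another peak lay within 1000 bp of 7 of the 16 (43.8%, Wilson 95% interval 23.1 to 66.8%), against 24.9% of the list. These were the pairs at Dusp1 and Spry2 and the group of 3 at Dusp6, and neither Spry4 nor Phlda1 had one. Within 10 kb another peak was found for 11 of 16 (68.8%, Wilson 95% interval 44.4 to 85.8%), against 48.7% of the list. None of the 16 (Wilson 95% interval 0 to 19.4%) was more than 100 kb from any other peak, as 11.9% of the list were. The Phlda1 peak came nearest to that, with a gap of 64.2 kb. Each of these Wilson intervals takes in the share of the list beside it, but this is no test. The intervals assume independent peaks, whereas closeness is shared between neighbours, and the 7 peaks with another within 1000 bp form 3 groups. Counting each run of peaks within 1000 bp as 1 region, the 16 peaks formed 12 regions: 5 at Dusp1, 3 at Dusp6, 2 at Spry4 and 1 each at Spry2 and Phlda1.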

How the data were processed

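The data are 1 list of c-FOS peaks. Per the submitters' processing notes, the authors used Bowtie2 and MACS2 with the build mm9, for alignment and peak calling by the series' design text. Versions, the calling threshold, the part played by the input and how 2 ChIP samples became 1 list are not given in these sources. The deposited file has 3 columns, chromosome, start and end, and no score, so peak strength was not compared. 0 peaks lay beyond an mm9 chromosome end and 55 beyond an mm10 end (lengths from GenomeInfoDb 1.38.1, R 4.3.3). Coordinates are printed 1-based on mm9.

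A peak belonged to a window when its midpoint lay inside. Counts, widths, gaps and background windows were computed with Python 3.11.15, numpy 2.4.6 and pandas 2.3.3, intervals with scipy 1.17.1, and figures with matplotlib 3.10.9; the counting was tested on simulated data. Densities use the assembled length, gaps included. All 16 peaks in the windows are named. The genes, windows, lists and motifs were chosen with earlier results of these data known. Promoter sequences and gene names are RefSeq's, on GRCm38.p6, matched by symbol: 5 of 5 genes had a name and 3 of 5 a promoter. Peaks near the 22 other pathway genes were not analysed here, since no mm9 annotation was used. No test between groups was made, because all samples shared 1 condition.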

Additional observations from a re-analysis of the deposited data

How the results depend on the processing

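With 1 list that holds no score and names no replicate, a stricter peak threshold and leaving out a replicate could not be tried. No paired analysis was possible because the list has no column per sample. The alternatives were peaks wider than the list median, no peaks of the smallest width, merging within 1000 bp, any overlap with the window, and windows of 0.5 or 2 times the length. The number of windows with a peak was 5 under each of these except for peaks wider than the median, which left 4, without Phlda1. The count of 16 peaks went to 28 in windows of 2 times the length, where Dusp1 had 14 and Phlda1 had 4, and the density of 27.6 per Mb went to 44.8 per Mb in windows of 0.5 times the length. Other totals and the median width stayed within 1.5 times. Of 30 counts for single windows, 23 stayed within 1.5 times, and merging left 3 of 5 regions at Dusp6 and 1 of 2 at Spry2.

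The background depends on what it is taken over. Moving the background windows by 0.5 times their length gave 1.96% for Dusp1, 3.03% for Dusp6, 15.0% for Spry2, 15.9% for Spry4 and 26.7% for Phlda1. The moved windows count the same peaks again, so their closeness to the first shares measures no sampling spread. Taking the same chromosome gave 3.35% for Dusp1, 1.02% for Dusp6, 1.44% for Spry2, 12.3% for Spry4 and 16.2% for Phlda1. Among windows with at least 1 peak the shares were 7.55% for Dusp1, 11.4% for Dusp6, 53.1% for Spry2, 54.9% for Spry4 and 100% for Phlda1, the last by construction.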
